A study of Mus musculus with 11 samples.

Results

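The aldo-keto reductase genes *Akr1a1*, *Akr1b3*, *Akr1b7*, *Akr1b8*, *Akr1b10*, *Akr1c12*, *Akr1c13*, *Akr1c14*, *Akr1c18* and *Akr1c19* were followed in RNA-seq of mouse colon. These 10 genes were taken by name from the 43346 genes of the count table. The rule for taking them uses no measured value, though the family was chosen for description with earlier results of these data known. Colon was taken from 5 germ-free and 6 humanized Swiss Webster mice, all male and 8 to 10 weeks old. Germ-free mice carried no microbiota. Humanized mice were germ-free until they received 300 µL of a human stool suspension by gavage at 4 to 5 weeks of age, after which the microbiota was left to adapt for 4 to 5 weeks. The stool came from 1 donor, so the comparison covers that 1 community. Both groups lived in flexible film isolators on the same autoclaved diet. How many isolators held each group is not given in the sources used here, so isolator and colonization cannot be told apart. Neither labels nor methods name the segment of the colon or say whether muscle was removed.

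Aldo-keto reductases are soluble enzymes that reduce aldehydes and ketones to alcohols, many of them with NADPH. The Akr1a and Akr1b branches reduce sugars, glucuronate, retinaldehyde and reactive aldehydes from lipid peroxidation, and the Akr1c branch acts mainly as hydroxysteroid dehydrogenases that interconvert active and less active steroids. In the gut these enzymes also reduce drugs and aldehydes from the diet and lumen, and several are known targets of the oxidative stress sensor Nrf2.

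Of the 10 genes, 3 were upregulated in humanized mice (*Akr1b8*, *Akr1c18* and *Akr1a1*), 1 was downregulated (*Akr1c19*) and 6 did not pass the test. The test was the edgeR exact test between the groups at a false discovery rate (FDR) below 0.01, adjusted over all 19863 genes with enough counts, and all 10 genes were among them. Over those 19863 genes 9.2% were higher and 10.1% were lower in humanized mice. Log2-fold change (LFC) is given as humanized over germ-free throughout. The median LFC of the 10 genes was 0.22, against 0.008 for all tested genes. For 2 members, *Akr1b8* and *Akr1c18*, every humanized mouse was above every germ-free mouse, and for 0 members every humanized mouse was below. Among all tested genes 8.67% were separated in this way with humanized mice above, and 9.73% with humanized mice below. The 1 lower member of 10 is near the background share, and the 3 higher members of 10 are above it, with no test of that difference.

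Total counts per mouse ran from 49097005 to 64148538 in germ-free and from 39125290 to 54219854 in humanized mice. The 11 epithelial markers searched all had enough counts to be tested, and 2 were higher and 0 lower in humanized mice. These markers are not specific to colon, so they do not check that label. Smooth muscle markers were lower for 9 of 9 genes, with a summed level of 567 to 1736.4 CPM (read counts scaled to the size of the library) in germ-free and 77.3 to 609 CPM in humanized mice. Fibroblast markers were lower for 5 of 6 genes, and markers of enteric neurons and glia for 6 of 6. Surface colonocyte markers were higher for 3 of 6 genes (*Car1*, *Ceacam1* and *Ceacam20*). Their summed level was 5521.5 to 7728.5 CPM in germ-free and 11556.3 to 19872.6 CPM in humanized mice. *Car1* (LFC 1.34) and *Ceacam1* (LFC 1.49) had the most counts of this set, so the sum rests mainly on them. *Guca2a* went the other way, with an LFC of -0.28 (edgeR exact test, FDR = 0.127). Among crypt and proliferation markers 2 of 5 tested were lower (*Lgr5* and *Ascl2*), and among leukocyte markers 2 of 6 were higher (*Cd3e* and *Cd79a*). Goblet cell markers were higher for 2 of 6 genes (*Fcgbp* and *Tff3*) and lower for 0. Of 5 markers of distal colon position 2 were tested, and *Hoxd11* was lower (LFC -1.52, edgeR exact test, FDR = 0.000975) while *Hoxa13* had an LFC of -1.63 (FDR = 0.019). The summed level of the distal markers was 6.08 to 11.5 CPM in germ-free and 0.631 to 4.66 CPM in humanized mice, without overlap. Humanized mouse 5 stood apart, with the lowest summed level of smooth muscle (77.3 CPM), fibroblast (109 CPM) and leukocyte (25 CPM) markers of the 11 mice. Without it the same 4 members passed the test in the same directions. In bulk tissue, fewer cells of a type and less RNA per cell cannot be told apart, and the part of these markers in the results below was not tested.

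The promoters of 4 members are shown first, because the changes fell on single genes inside clusters of close relatives: *Akr1b8* rose beside *Akr1b10*, which did not pass the test, and *Akr1c18* and *Akr1c19* lie in 1 cluster and moved in opposite directions. Each sequence holds 250 bases before and 50 bases after the start of the gene in RefSeq on GRCm38.p6, read 5′ to 3′ on the strand of the gene. Capitals mark a match to 1 of 3 motifs searched on both strands: TGACNNNGC (core of the antioxidant response element bound by Nrf2), GCGTG (core of the xenobiotic response element bound by the aryl hydrocarbon receptor) and TATAAA (the box that places the start of transcription). The *Akr1b8* window lies at chr6:34353896-34354195 (plus strand), that of *Akr1b10* at chr6:34383997-34384296 (plus strand), that of *Akr1c18* at chr13:4150597-4150896 (minus strand) and that of *Akr1c19* at chr13:4233490-4233789 (plus strand).
Akr1b8: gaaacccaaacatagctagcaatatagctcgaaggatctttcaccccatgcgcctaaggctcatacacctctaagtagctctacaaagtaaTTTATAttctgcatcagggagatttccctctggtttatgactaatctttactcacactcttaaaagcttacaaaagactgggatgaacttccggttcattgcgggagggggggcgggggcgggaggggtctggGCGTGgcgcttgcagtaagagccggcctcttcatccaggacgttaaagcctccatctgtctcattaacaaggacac
Akr1b10: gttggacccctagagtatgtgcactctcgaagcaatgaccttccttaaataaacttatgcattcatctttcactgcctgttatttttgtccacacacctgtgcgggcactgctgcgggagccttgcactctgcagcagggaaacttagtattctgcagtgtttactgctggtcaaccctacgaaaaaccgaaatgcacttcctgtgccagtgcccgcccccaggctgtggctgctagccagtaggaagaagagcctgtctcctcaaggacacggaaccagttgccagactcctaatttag
Akr1c18: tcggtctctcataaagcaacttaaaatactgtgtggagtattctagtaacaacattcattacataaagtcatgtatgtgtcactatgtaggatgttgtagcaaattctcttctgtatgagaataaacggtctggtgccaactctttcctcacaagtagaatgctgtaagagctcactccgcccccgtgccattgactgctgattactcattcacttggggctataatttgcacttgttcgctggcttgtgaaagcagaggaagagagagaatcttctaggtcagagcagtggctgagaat
Akr1c19: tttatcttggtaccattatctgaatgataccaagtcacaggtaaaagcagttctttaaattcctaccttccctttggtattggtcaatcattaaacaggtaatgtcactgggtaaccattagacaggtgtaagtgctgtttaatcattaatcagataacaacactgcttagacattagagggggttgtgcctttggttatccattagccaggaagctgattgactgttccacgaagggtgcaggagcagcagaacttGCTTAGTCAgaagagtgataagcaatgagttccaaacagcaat

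The *Akr1b8* window held GCGTG from 26 bases before the start and, on the opposite strand, TATAAA from 159 bases before it. The *Akr1c19* window held TGACNNNGC on the opposite strand, 7 bases after the start. The *Akr1b10* and *Akr1c18* windows held none of the 3 motifs. RefSeq windows were found for 9 of the 10 members, and *Akr1b3* had no entry. Among the 9, TGACNNNGC was found in 1, GCGTG in 2 (the other in *Akr1c14*) and TATAAA in 1. Of all 32851 mouse promoter windows of this length, 12.4% held TGACNNNGC, 32.4% held GCGTG and 13.6% held TATAAA. The RefSeq starts of *Akr1c19* and *Akr1c14* lie inside the genes as the count table places them, which begin at positions 4228700 and 4049011. Each of these windows therefore belongs to 1 possible start and may not be the only one.

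*Akr1b8* (ENSMUSG00000029762, chromosome 6, 34354119 to 34368463 on mm10) encodes an aldose reductase-like enzyme of the gut that reduces retinaldehyde and unsaturated aldehydes. Its level was 4.21, 5.35, 5.08, 6.13 and 9.89 RPKM in germ-free mice 1 to 5. In the 6 humanized mice it was 28.5, 27.2, 23.8, 25.5, 17.9 and 26.4 RPKM. RPKM are read counts scaled to gene length and to library size, the latter by TMM normalization (trimmed mean of M-values). The lowest humanized mouse, mouse 5, was still above the highest germ-free mouse. Mean levels were 6.13 ± 2.21 (SD, n = 5) and 24.9 ± 3.76 RPKM (SD, n = 6), an LFC of 2.02 with a standard error of 0.20 (edgeR exact test, FDR = 3.54e-19). The gene was thus 4.06-fold higher and reached percentile 86.3 of the tested genes by RPKM in humanized mice. The spread over mice, as the coefficient of variation, was 36% in germ-free and 15.1% in humanized mice. The values rest on 398 to 1984 counts per mouse. Without humanized mouse 5 the LFC was 2.1.

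*Akr1c18* (ENSMUSG00000021214, chromosome 13, 4132615 to 4150654) encodes 20α-hydroxysteroid dehydrogenase, known for inactivating progesterone. It measured 6.04, 13.4, 8.53, 9.79 and 13.4 RPKM in germ-free mice. Humanized mice measured 35.1, 25.6, 21, 20.2, 33 and 22.1 RPKM. Every humanized mouse was above every germ-free mouse, with the narrowest gap between 13.4 and 20.2 RPKM. The means were 10.2 ± 3.2 and 26.2 ± 6.41 RPKM, and the LFC was 1.35 with a standard error of 0.22 (edgeR exact test, FDR = 1.32e-07). On the linear scale this was 2.55-fold. Counts per mouse ran from 460 to 1890. Without humanized mouse 5 the LFC was 1.27.

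*Akr1c19* (ENSMUSG00000071551, chromosome 13, 4228700 to 4248681), a gene of the hydroxysteroid dehydrogenase branch, had the highest RPKM of the family in both groups, at percentile 98.8 of tested genes in humanized mice. Germ-free mice had 324, 239, 310, 257 and 282 RPKM. Humanized mice had 220, 183, 174, 200, 271 and 216 RPKM. The groups overlapped: humanized mouse 5 was above germ-free mice 2 and 4, and the other 5 humanized mice were below all germ-free mice. The mean fell from 283 ± 35.2 to 211 ± 34.6 RPKM, an LFC of -0.42 with a standard error of 0.12 (edgeR exact test, FDR = 0.00387). The direction held in all 21 alternative analyses, with LFC values from -0.68 to -0.37, but FDR rose above 0.01 in 9 of them, among them the analyses without germ-free mouse 1 (FDR = 0.0239), 3 (FDR = 0.0219) or 5 (FDR = 0.0124) and without humanized mouse 2 (FDR = 0.0137), 3 (FDR = 0.0103) or 4 (FDR = 0.0124). Without humanized mouse 5, which was the highest of its group, the LFC was -0.51 (FDR = 1.77e-05).

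*Akr1a1* (ENSMUSG00000028692, chromosome 4, 116636510 to 116651680) encodes aldehyde reductase, which in mice also turns glucuronate into a precursor of vitamin C. Levels were 123, 142, 129, 134 and 136 RPKM in germ-free mice. They were 166, 160, 140, 157, 173 and 168 RPKM in humanized mice. Only humanized mouse 3 fell inside the germ-free range. The means were 133 ± 6.96 and 161 ± 11.7 RPKM, the narrowest relative spread of the called members, with an LFC of 0.27 and a standard error of 0.07 (edgeR exact test, FDR = 0.00287). This small change depended on how libraries were scaled. The LFC was 0.08 (FDR = 0.338) when libraries were scaled by total counts and 0.03 (FDR = 0.772) when they were scaled by epithelial markers. Those scalings moved the median LFC of all tested genes from 0.008 to -0.176 and -0.226. Relative to that median the LFC of *Akr1a1* was 0.26 under each. Scaling libraries shifts all genes nearly alike, so a value relative to the median hardly changes whichever scaling is used. It is no check on the call, here or where such values are given below. The call was lost in 8 of 21 alternative analyses, these scalings included. It was also lost without germ-free mouse 1 (FDR = 0.0184), 3 (FDR = 0.0162) or 4 (FDR = 0.0113), or humanized mouse 1 (FDR = 0.0106). With 1 mouse left out the LFC ran from 0.25 to 0.31.

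**Figure D1:**
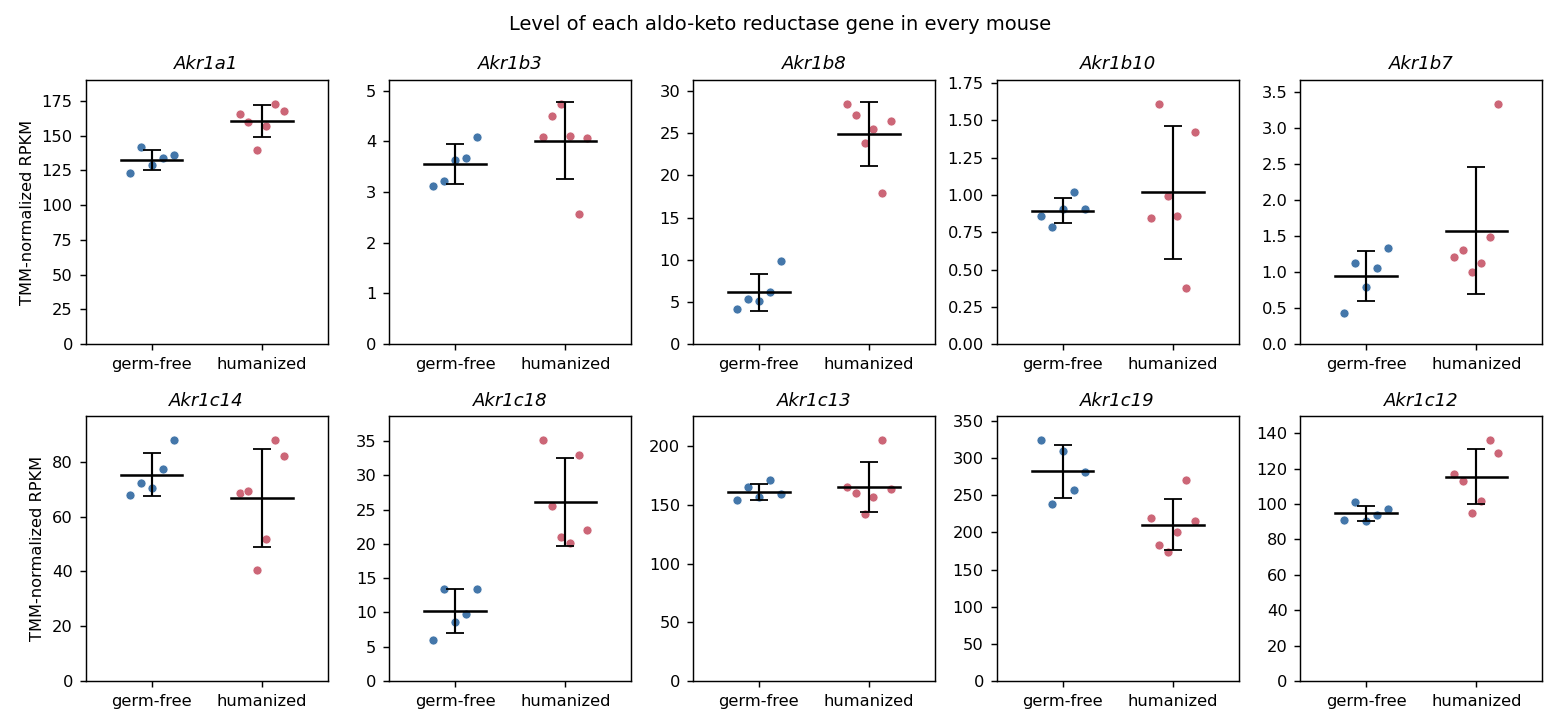
Each panel shows 1 gene, with TMM-normalized RPKM on a linear axis from 0, a point for each of 5 germ-free and 6 humanized mice, and the mean and SD as black lines. The points of the groups are fully separated for *Akr1b8* (4.21 to 9.89 against 17.9 to 28.5 RPKM) and *Akr1c18* (6.04 to 13.4 against 20.2 to 35.1 RPKM) and overlap in the other panels.

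The 6 members that did not pass the test covered both branches. *Akr1c12* and *Akr1c13* are near-identical hydroxysteroid dehydrogenase genes. *Akr1c12* measured 90.9, 101, 90.7, 93.9 and 97.3 RPKM in germ-free mice and 117, 113, 95.1, 102, 136 and 129 RPKM in humanized mice. The means were 94.8 ± 4.4 and 116 ± 15.7 RPKM (LFC 0.29, edgeR exact test, FDR = 0.0167), with 1 humanized mouse inside the germ-free range. It passed the test in 1 of 21 alternatives, the one without humanized mouse 3 (FDR = 0.00125). *Akr1c13* measured 154, 165, 157, 171 and 159 RPKM in germ-free mice and 165, 160, 142, 157, 205 and 164 RPKM in humanized mice. Its groups lay on top of each other except for humanized mouse 5 at 205 RPKM and mouse 3 at 142 RPKM (LFC 0.04 with a standard error of 0.08, edgeR exact test, FDR = 0.821). Without humanized mouse 5 its LFC was -0.04. It was -0.16 under scaling by total counts and -0.21 under scaling by epithelial markers, which is 0.02 above the median of all genes under each.

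*Akr1c14* encodes 3α-hydroxysteroid dehydrogenase, which inactivates the androgen dihydrotestosterone. It measured 68, 72.4, 70.4, 77.4 and 87.8 RPKM in germ-free mice and 68.5, 69.5, 40.5, 51.9, 87.8 and 82 RPKM in humanized mice. Humanized mice 3 and 4 were below every germ-free mouse, and the other 4 lay between 68.5 and 87.8 RPKM, much as the germ-free mice did. The LFC was -0.17 with a standard error of 0.17 (edgeR exact test, FDR = 0.507), and ran from -0.27, without humanized mouse 5, to -0.06, without humanized mouse 3. Scaling by epithelial markers gave an LFC of -0.43 (FDR = 0.00667), or -0.20 relative to the median of all genes.

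*Akr1b3* is the mouse aldose reductase, which turns glucose into sorbitol. It measured 3.12, 3.21, 3.64, 3.67 and 4.09 RPKM in germ-free mice and 4.08, 4.5, 4.74, 4.1, 2.56 and 4.07 RPKM in humanized mice. Of the humanized mice 3 were above the whole germ-free range and mouse 5 was below it (LFC 0.18 with a standard error of 0.14, edgeR exact test, FDR = 0.451). Its LFC was 0.28 without humanized mouse 5 and 0.12 without humanized mouse 3. *Akr1b10*, an aldose reductase-like gene, measured 0.857, 0.784, 0.905, 1.02 and 0.906 RPKM in germ-free mice and 0.847, 1.61, 0.991, 0.858, 0.375 and 1.42 RPKM in humanized mice. Its coefficient of variation was 9.78% in germ-free and 43.7% in humanized mice (LFC 0.18 with a standard error of 0.29, edgeR exact test, FDR = 0.718). With 1 mouse left out its LFC ran from 0.0024, without humanized mouse 2, to 0.36, without humanized mouse 5, and was 0.06 without humanized mouse 6. *Akr1b7*, which reduces the aldehyde released when steroids are made from cholesterol, measured 0.433, 1.13, 0.788, 1.05 and 1.33 RPKM in germ-free mice and 1.21, 1.3, 1, 1.12, 1.48 and 3.33 RPKM in humanized mice. Humanized mouse 6 was far above the rest, and 4 of the others lay within the germ-free range (LFC 0.74 with a standard error of 0.35, edgeR exact test, FDR = 0.136). With 1 mouse left out its LFC ran from 0.36, without humanized mouse 6, to 0.89, without germ-free mouse 5. *Akr1b7* and *Akr1b10* rest on 35 to 214 and 63 to 252 counts per mouse. The LFC of 0.27 seen for *Akr1a1* is smaller than their standard errors of 0.35 and 0.29.

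**Figure D2:**
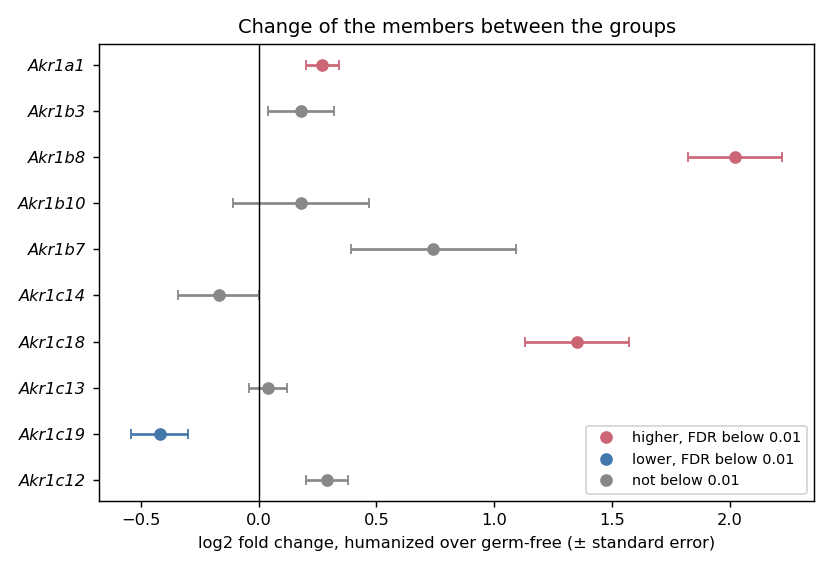
Log2-fold change of each member, humanized over germ-free, with its standard error as a bar and the vertical line at 0. *Akr1b8* (2.02) and *Akr1c18* (1.35) stand to the right of the other 8 genes, which lie between -0.42 and 0.74.

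By length-scaled level the family fell into 3 tiers. *Akr1c19*, *Akr1c13*, *Akr1a1*, *Akr1c12* and *Akr1c14* lay between 66.7 and 283 RPKM on average in each group, *Akr1c18* and *Akr1b8* between 6.13 and 26.2 RPKM, and *Akr1b3*, *Akr1b7* and *Akr1b10* between 0.895 and 4.01 RPKM. The order of mean RPKM was *Akr1c19*, *Akr1c13*, *Akr1a1*, *Akr1c12*, *Akr1c14*, *Akr1c18*, *Akr1b8*, *Akr1b3*, *Akr1b7* and *Akr1b10* in both groups. Among neighbours in this order, *Akr1c18* and *Akr1b8*, and *Akr1b7* and *Akr1b10*, overlapped in both groups. In humanized mice *Akr1c13* (142 to 205 RPKM) also overlapped with *Akr1c19* above it (174 to 271 RPKM) and with *Akr1a1* below it (140 to 173 RPKM). *Akr1b3* (2.56 to 4.74 RPKM) and *Akr1b7* (1 to 3.33 RPKM) overlapped in humanized mice too. The ranges of the other neighbours did not overlap in either group. The order depends on the gene length used. The deposited lengths are named coding lengths, but for 5 of the 10 members they equal the union of all exons of the gene in GENCODE M21, and for all 10 they exceed the reading frame of the main protein-coding transcript. For *Akr1a1* the deposited length is 2750 bases, the main transcript has 1420 bases and its reading frame 978. With transcript lengths, *Akr1a1* came to 311 RPKM in humanized mice and passed *Akr1c19* at 294 RPKM. In germ-free mice *Akr1c19* stayed first at 394 RPKM, with *Akr1a1* at 257 RPKM. *Akr1b3* rose to 10.1 RPKM in germ-free mice on the same lengths, above *Akr1b8* at 6.77 RPKM. Fold changes between groups do not depend on length.

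The summed RPKM of the 10 genes was 769 ± 19.2 in germ-free and 777 ± 97.5 in humanized mice, with overlapping ranges of 743 to 792 and 644 to 929 RPKM. The makeup of the sum changed. *Akr1c19* took 41.8%, 32.2%, 39.9%, 34.1% and 35.6% of it in germ-free mice and 24.5% to 29.2% in humanized mice, so the groups did not overlap. *Akr1b8* took 0.543% to 1.25% in germ-free and 1.93% to 3.69% in humanized mice. *Akr1c18* took 0.78% to 1.81% and 2.7% to 4.36%. *Akr1c12*, which did not pass the test, took 11.7% to 13.6% and 14.2% to 15.8%. Set against the same sum, 6.77% of all tested genes were separated with humanized mice above and 6.61% with humanized mice below. *Akr1c13* stayed near 21% (21% and 21.3%). The 4 Akr1b genes together went from 11.5 ± 2.87 to 31.5 ± 4.86 RPKM. Most of this was *Akr1b8*, which went from 6.13 to 24.9 RPKM, and the other Akr1b genes did not pass the test. The 5 Akr1c genes summed to 624 ± 22.6 and 585 ± 89.2 RPKM.

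**Figure D3:**
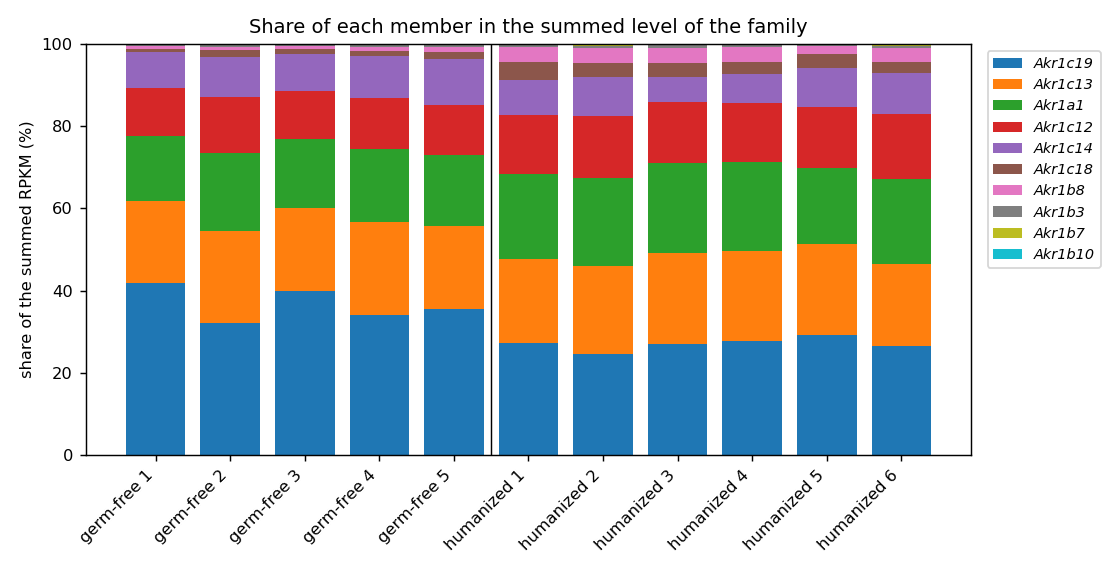
Stacked bars give the share (%) of each member in the summed RPKM of the 10 genes, with 1 bar per mouse and a line between the germ-free and humanized mice. The *Akr1c19* share lies at 32.2% to 41.8% in germ-free and 24.5% to 29.2% in humanized mice, and the *Akr1b8* and *Akr1c18* bands are wider in humanized mice.

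Ratios between 2 genes within the same mouse do not depend on the scaling of the library. The pairs were chosen after the counts were seen, and their ratios are given as a description without a test. *Akr1b8* over *Akr1b3* was 1.35 to 2.42 in germ-free and 5.02 to 7 in humanized mice. *Akr1b8* over *Akr1b10* was 4.91 to 10.9 and 16.9 to 47.8. *Akr1c18* over *Akr1c14* was 0.0889 to 0.186 and 0.269 to 0.52. In these 3 pairs every humanized mouse was above every germ-free mouse. *Akr1c19* over *Akr1c12* was 2.37 to 3.56 in germ-free and 1.61 to 1.99 in humanized mice, so this ratio separated the groups although the *Akr1c19* levels themselves overlapped. *Akr1c13* over *Akr1c12* was 1.64 to 1.82 and 1.27 to 1.54. Separation below is common over *Akr1c12*: of all other tested genes 17.5% had a ratio to *Akr1c12* with every humanized mouse below every germ-free mouse. With humanized mice above, the shares were 1.64% over *Akr1b3*, 1.16% over *Akr1b10* and 7.43% over *Akr1c14*.

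**Figure D4:**
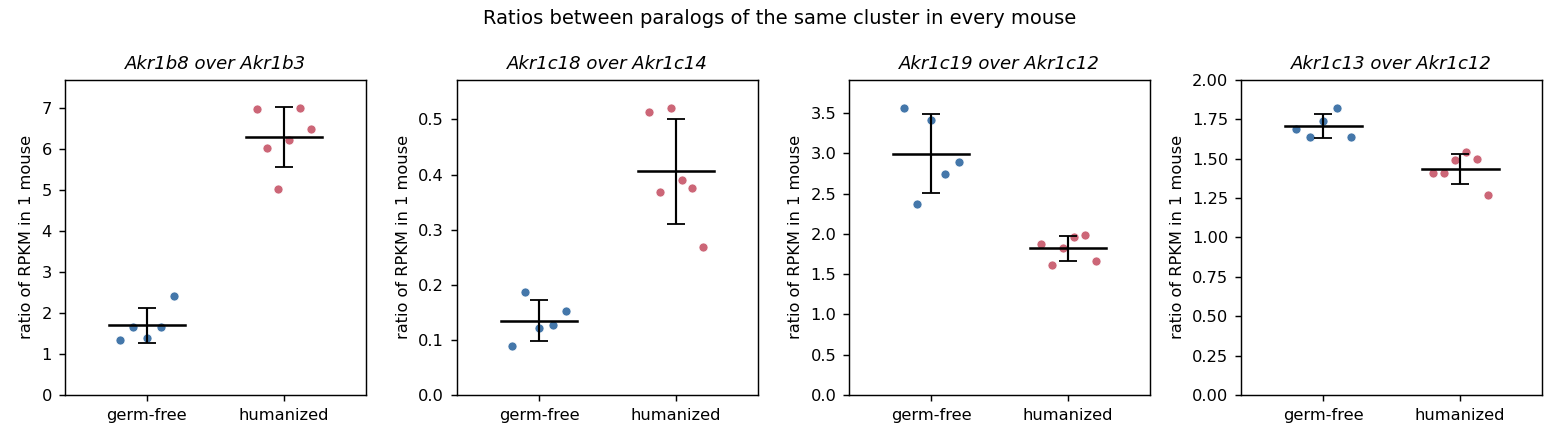
Each panel gives the ratio of the RPKM of a pair of paralogs from the same cluster in each mouse, on a linear axis from 0, with mean and SD as black lines. Germ-free and humanized mice do not overlap in any of the 4 panels: humanized mice are above for *Akr1b8* over *Akr1b3* and *Akr1c18* over *Akr1c14*, and below for *Akr1c19* over *Akr1c12* and *Akr1c13* over *Akr1c12*.

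On chromosome 6 the members lie in the order *Akr1b3*, *Akr1b8*, *Akr1b10* and *Akr1b7*, from 34303934 to 34423142, and *Akr1b8* was the only 1 of the 4 to pass the test. Within 250 kb on either side 6 genes outside the family were tested, and 2 passed. The nearest called gene was *Bpgm*, which makes the haemoglobin regulator 2,3-bisphosphoglycerate, with an LFC of 0.56 (edgeR exact test, FDR = 2.6e-07), followed by *Cald1*, a smooth muscle gene, with an LFC of -1.41 (FDR = 0.00178). On chromosome 13 the order is *Akr1c14*, *Akr1c18*, *Akr1c13*, *Akr1c19* and *Akr1c12*, from 4049011 to 4279433. The upregulated *Akr1c18* and the downregulated *Akr1c19* flank *Akr1c13*. Only 3 genes outside the family were tested within 250 kb of this cluster, and 0 passed the edgeR exact test (*Net1*, with FDR = 0.0464, *Tubal3* and *Marcksl1-ps4*). *Akr1a1* is the only member on chromosome 4, and 18 other genes were tested around it. *Prdx1*, the nearest tested gene on 1 side and a peroxiredoxin that removes hydrogen peroxide, had an LFC of 0.38 (edgeR exact test, FDR = 0.00012), and the kinase gene *Mast2*, farther off on the other side, 0.25 (FDR = 0.00502).

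Reads of close paralogs can be hard to assign, and how the counting treated reads with several matches is not given in the sources used here. Over the longest reading frame of the main transcript, *Akr1c12* and *Akr1c13* were 96.2% identical, *Akr1b7* and *Akr1b10* 89.3%, *Akr1b8* and *Akr1b10* 85.1%, and *Akr1c14* and *Akr1c18* 76.5%. Stretches of 101 bases, the read length, were searched for exact copies in the other transcripts. None of those of *Akr1b8*, *Akr1c18*, *Akr1a1*, *Akr1b7* or *Akr1b10* recurred in another gene. *Akr1c12* shared 11.37% and *Akr1c13* 9.22% of its stretches with the other, so the values of these 2 genes are less certain. *Akr1b3* shared 7.32% with pseudogenes. *Akr1c19* shared 3.3% with *Marcksl1-ps4* and *Akr1c14* 4.27% with *Gm18857*. GENCODE M21 places these pseudogenes on the same strand, with exons that overlap theirs by 291 and 234 bases. In the count table *Akr1c19* ends at 4248681, before *Marcksl1-ps4* starts at 4248735, and *Gm18857* is not among the genes around this cluster. Of the *Akr1b7* exons, 27.2% overlap the pseudogene *Gm13857* on the opposite strand, and the strand setting of the counting is likewise not given in those sources.

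Across mice, members were compared by the correlation of their log2 CPM after subtraction of the group means (n = 11, all from the same libraries, as a description). *Akr1c12* and *Akr1c14* deviated most alike (r = 0.93), followed by *Akr1a1* and *Akr1c12* (r = 0.9) and *Akr1a1* and *Akr1c14* (r = 0.86). These 3 values were 0.91, 0.88 and 0.82 without humanized mouse 5. The likeness of *Akr1b3* and *Akr1b10* (r = 0.81) fell to 0.27 without that mouse, and the opposite deviation of *Akr1b3* and *Akr1c13* (r = -0.82) to -0.28. The genes most like each called member were those with the highest correlation of log2 CPM over the 11 mice, group difference included. For *Akr1b8* (LFC 2.02) they were *Ganab* (r = 0.985, LFC 0.24) and *Gstm4* (r = 0.975, LFC 0.54). For *Akr1c18* (LFC 1.35) they were *Gm10221* (r = 0.987, LFC 0.56) and *Clic1* (r = 0.981, LFC 0.45). These genes changed far less than the members. For *Akr1a1* they were *Ap2b1* (r = 0.991) and *Vdac1* (r = 0.99), and for *Akr1c19* *Sowahc* and *AC153941.1* (r = 0.947 each). The median coefficient of variation of the 10 members was 10.7% in germ-free and 17.6% in humanized mice, against 10.4% and 16.5% over all tested genes.

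Other genes of the aldo-keto reductase superfamily had 0 of 6 tested genes past the threshold, out of 10 listed. *Akr1c21* had an LFC of 1.72 but an FDR of 0.0241 (edgeR exact test), *Akr1e1* an LFC of 0.54 (FDR = 0.186) and *Akr7a5*, an aflatoxin aldehyde reductase, an LFC of 0.08 (FDR = 0.605). Of 13 carbonyl and quinone reductases outside the superfamily, 6 were higher and 0 lower. *Cbr3*, a carbonyl reductase, had the largest LFC of the list at 2.75 (FDR = 1.13e-55), and *Cbr1*, its relative with broad activity on carbonyl drugs, had 1.05 (FDR = 3.38e-30). *Nqo1*, the quinone reductase, had 0.73, *Dcxr*, which reduces dicarbonyls and xylulose, 0.49, and *Blvrb*, a flavin and biliverdin reductase, 0.46. With scaling by epithelial markers 3 of these genes stayed higher (*Cbr3*, *Cbr1* and *Nqo1*) and *Dhrs4* was called lower. Relative to the median of all genes under that scaling, *Dcxr*, *Blvrb* and *Por*, which lost the call, were at 0.47, 0.45 and 0.49, and *Dhrs4* was at -0.15. *Por*, which passes electrons from NADPH to cytochromes P450, had an LFC of 0.51 (FDR = 9e-07) in the main comparison, and *Dhrs4*, a carbonyl reductase, -0.13 (FDR = 0.313). Both were picked for naming once their values had been seen.

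NADPH, the cofactor of many but not all aldo-keto reductases, is made by the pentose phosphate pathway, malic enzyme and cytosolic isocitrate dehydrogenase. Of 9 genes listed for its supply, 6 were higher and 0 lower. Malic enzyme *Me1* had an LFC of 1.55 (edgeR exact test, FDR = 6.46e-21). *Pgd* and *G6pdx*, the dehydrogenases of the pentose phosphate pathway, had 0.50 (FDR = 0.000991) and 0.49 (FDR = 8.52e-09). *Nadk*, which phosphorylates NAD, had 0.43 and *Idh1* 0.36. Only *Me1* stayed called when libraries were scaled by epithelial markers, which moved the median of all genes to -0.226. Relative to that median, the 5 genes that lost the call were at 0.35 (*Idh1*) to 0.49 (*Pgd*).

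Of 14 regulators and targets of Nrf2, 10 were higher and 1 was lower in humanized mice. *Nfe2l2*, which encodes Nrf2 itself, had an LFC of 0.12 (edgeR exact test, FDR = 0.383), and its inhibitor *Keap1* 0.09 (FDR = 0.556). Haem oxygenase *Hmox1* was highest with 1.37 (FDR = 1.28e-06), followed by *Nqo1*, which is also in the list of quinone reductases. The glutathione synthesis genes *Gclm* and *Gclc* had 0.49 and 0.41, and glutathione reductase *Gsr* 0.32. *Ephx1*, epoxide hydrolase, was the 1 gene that fell, with -0.47 (FDR = 0.000519). With scaling by epithelial markers 4 of the 14 stayed higher, *Hmox1*, *Nqo1* and the ferritin genes *Ftl1* and *Fth1*. *Gclm*, *Gclc* and *Gsr* lost the call and were at 0.47, 0.39 and 0.31 relative to the median of all genes. The median LFC was 0.41 for this list, 0.43 for NADPH supply and 0.18 for the carbonyl and quinone reductases, against 0.008 for all tested genes. Under scaling by total counts the whole table gave 773 genes higher and 3609 lower, and under scaling by epithelial markers 565 and 3184, in place of 1827 and 1999.

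The polyol pathway and glyoxal removal, which work beside aldose reductase, had 0 of 8 tested genes called in either direction. *Sord*, which oxidizes sorbitol, had an LFC of 0.02, *Khk*, which phosphorylates fructose, 0.07, and *Glo1*, which removes methylglyoxal, 0.25 (edgeR exact test, FDR = 0.0149). Of 13 tested genes listed for steroid metabolism, 3 were higher and 0 lower. They were the 17β-hydroxysteroid dehydrogenase genes *Hsd17b2* with an LFC of 0.71 (FDR = 0.000104), *Hsd17b4* with 0.49, which works in peroxisomal fat oxidation, and *Hsd17b11* with 0.41. With scaling by epithelial markers *Hsd17b2* stayed called, while *Hsd17b4* (FDR = 0.0125) and *Hsd17b11* (FDR = 0.127) did not, at 0.48 and 0.40 relative to the median of all genes. The steroid reductase *Srd5a1* had -0.03 (FDR = 0.884), the glucocorticoid enzyme *Hsd11b1* -0.64 (FDR = 0.106) and *Hsd11b2* an LFC near 0 (FDR = 0.986).

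Several aldo-keto reductases can make prostaglandin F2α, so genes of prostaglandin synthesis, breakdown and signalling were listed too. Of 15 tested, 1 was higher and 4 were lower. The transporter *Slco2a1*, which takes up prostaglandins for breakdown, had an LFC of 0.67 (edgeR exact test, FDR = 5.58e-07). Prostacyclin synthase *Ptgis* had -1.74 (FDR = 6.25e-05), the prostaglandin E receptors *Ptger3* and *Ptger4* had -0.74 and -0.43, and the prostaglandin D synthase *Hpgds*, named after its value was seen because it completes the 4, had -0.73. The cyclooxygenase genes *Ptgs1* and *Ptgs2* had -0.75 (FDR = 0.0548) and -1.03 (FDR = 0.0938). *Ptges* had -0.51 and the degrading enzyme *Hpgd* -0.36, and neither passed the test. With scaling by total counts or by epithelial markers 6 genes of the list were lower, with *Hpgd* (FDR = 0.00138 and 0.000257) and the receptor gene *Ptger1* added, at -0.39 and -0.20 relative to the median of all genes under the latter. The count of lower genes in this list moved most with single mice. It was 2 without germ-free mouse 3, 4 or 5 and 7 without humanized mouse 5, where *Hpgd* had -0.52 (FDR = 2.35e-05). Levels of smooth muscle and fibroblast markers were lower in humanized mice, as given above.

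**Figure D5:**
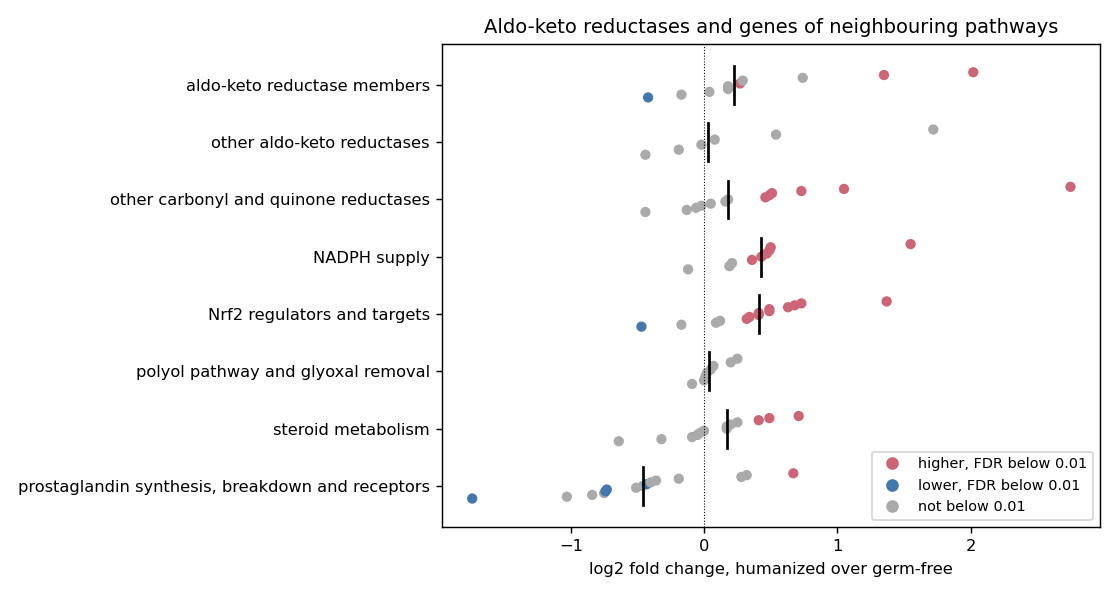
Log2-fold change of each tested gene, humanized over germ-free, with 1 row per list, a point per gene (red higher, blue lower, grey not past FDR 0.01), a black bar at the median of the list and a dotted line at 0. Medians of the carbonyl and quinone reductase, NADPH and Nrf2 lists are 0.18, 0.43 and 0.41, and that of the prostaglandin list is -0.46.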

How the data were processed

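Colon RNA of 11 mice (5 germ-free, 6 humanized) was prepared with the Illumina TruSeq RNA kit v2 and sequenced as 101 bp paired-end reads. The authors aligned reads to mm10 with TopHat2 2.1.0 and Bowtie2 2.2.3 (MAP-RSeq), and counted reads per gene with featureCounts of Subread 1.4.6-p5. They deposited raw counts, with no normalization, for 43346 genes and, per gene, a length named coding length, which for 5 of the 10 members equals the union of exons. The treatment of multi-mapped reads and strand is not given in the sources used here. Groups came from the labels, and each mouse is a separate animal.

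Counts were analysed on the whole table in R 4.3.3 with edgeR 4.0.16. Genes were filtered with filterByExpr (minimum count 10, minimum total 15, large sample size 10, minimum proportion 0.7), which kept 19863. After TMM normalization, humanized and germ-free mice were tested against each other by edgeR's exact test, as in the methods of the paper, and p-values were adjusted by Benjamini and Hochberg, with calls at FDR below 0.01. The standard errors come from the quasi-likelihood fit. RPKM used the deposited lengths, and log2 CPM a prior count of 2. Within a group, the mean chi-square statistic of counts ran from 21.2 to 132, far above counting error. Alternatives used DESeq2 1.42.0, limma 3.58.1 (voom), other normalizations and filters, a block on the replicate number, and each mouse left out. Scaling by epithelial markers used 11 genes. The steps were tested on simulated data. The RPKM with transcript lengths was added after the data were seen.

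The members and the gene lists were chosen with earlier results of these data known. Named genes are every member, the called genes with the highest and lowest LFC (up to 2 each) of each list, a fixed set of pathway genes, and for each called member the 2 genes most like it with a mean of at least 10 CPM. *Tkfc* and *Adgre1* were matched by Ensembl ID under older symbols, and *Hsd17b8* was not matched. Promoters came from RefSeq (GRCm38.p6). Transcripts and overlaps came from GENCODE M21, which places the start or end of some members differently from the annotation used for counting. Protein sequences were not used here.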

Additional observations from a re-analysis of the deposited data

Results flagged for a closer look

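In 3 of 20 groups of mice tested (each member in each group), 1 mouse lay far from the others, by a gap divided by the range of its group above the 95% critical value of Dixon's test. Chance flags about 1 in 20 groups (5%). *Akr1b3* was lowest in humanized mouse 5, at 2.56 RPKM against 4.07 RPKM for the next, a gap of 0.693 of the range. *Akr1c13* was highest in the same mouse, at 205 RPKM against 165 RPKM, a gap of 0.637 of the range. *Akr1b7* was highest in humanized mouse 6, at 3.33 RPKM against 1.48 RPKM, a gap of 0.796 of the range.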

How the results depend on the processing

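*Akr1b8* and *Akr1c18* passed the test in all 21 alternative analyses, with LFC values from 1.82 to 2.26 and from 1.13 to 1.47. *Akr1a1* passed in 13 of 21 (LFC 0.03 to 0.31) and *Akr1c19* in 12 of 21 (LFC -0.68 to -0.37). The cause of the lost calls was not tested. Signs turned only for genes that did not pass the test. Total counts and epithelial scaling moved the median LFC of all genes to -0.176 and -0.226. *Akr1c13* had an LFC of -0.0031 under upper-quartile normalization, -0.16 under total counts, -0.21 under epithelial scaling and -0.04 without humanized mouse 5, and from -0.04 to 0.08 over the analyses with 1 mouse left out. *Akr1b3* and *Akr1b10* had -0.03 each under epithelial scaling. Relative to that median *Akr1c13* was at 0.02 under both scalings, and *Akr1b3* and *Akr1b10* at 0.19 and 0.20 under epithelial scaling. Such values hardly change with the scaling of libraries, so they are no check on the signs. The 11 epithelial markers had a median LFC of 0.21 in the main analysis, and the cause of the turned signs was not tested. Counts were lowest for *Akr1b7* and *Akr1b10*, at most 214 and 252 per mouse, and the part of depth in their spread was not tested.

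The number of members called lower, 1 in the main analysis, was 0 with the quasi-likelihood test, with limma-voom and with an absolute LFC above 1, and 2 under epithelial scaling. Over all genes, the quasi-likelihood test called 1298 lower, total counts called 773 higher and 3609 lower, epithelial scaling 565 and 3184, FDR below 0.05 called 2780 higher, and an absolute LFC above 1 left 405 and 1273. Under total counts 1 carbonyl and quinone reductase was lower and 3 NADPH genes were higher. Under epithelial scaling 3 carbonyl and quinone reductases were higher and 1 lower, with 1 NADPH, 4 Nrf2 and 1 steroid gene higher. At FDR below 0.05, 1 other aldo-keto reductase, 1 polyol and 3 prostaglandin genes were higher. With an absolute LFC above 1, 2 carbonyl and quinone reductases, 1 NADPH and 1 Nrf2 gene were higher, 0 steroid and 0 prostaglandin genes were higher, and 0 Nrf2 and 1 prostaglandin gene were lower.

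When each mouse was left out in turn, members called lower ranged from 0 to 1, prostaglandin genes from 1 to 2 higher and 2 to 7 lower, and higher polyol and other aldo-keto reductase genes each from 0 to 1.

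The labels number the mice in each group, but the numbers refer to different animals. The correlation of deviations between mice with the same number ran from -0.133 to 0.091, so the numbers do not pair the mice. The block analysis used the quasi-likelihood test and left out humanized mouse 6, which has no partner, so it differs from the main analysis in test and mice as well. With a block on the number, 501 genes were higher and 501 lower, members called higher were 2 and lower 0, and the LFC of *Akr1b10* was -0.07. In that analysis 3 carbonyl and quinone reductases, 2 NADPH, 3 Nrf2 and 1 steroid gene were higher, and 0 Nrf2 and 0 prostaglandin genes were lower.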
